A study of Homo sapiens with 8 samples.

Results

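ABC transporter genes encode ATP-driven pumps, channels and related ATPases that carry lipids, drugs, conjugated metabolites, peptides and metal cofactors across membranes. The members described here are the hg38 RefSeq protein-coding genes named ABC with a letter from A to G and a number, without the bile salt and sterol exporters ABCB11, ABCB4, ABCG5 and ABCG8 and without the ABCA5, ABCA6, ABCA8, ABCA9 and ABCA10 cluster. This name rule found 36 of 20037 protein-coding genes, in 7 subfamilies, and used no measured value.

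The genes were examined for chromatin that carries macroH2A1, an H2A histone variant with a large extra domain, in HepG2 cells, a human hepatoblastoma line. The cells received control siRNA (siControl) or siRNA to the histone chaperone ANP32B (siANP32B) 3 days before harvest, were cryopreserved, and macroH2A1 was mapped by CUT&RUN, in which an antibody brings a nuclease to its target and the released DNA is sequenced. Each siRNA has 2 anti-macroH2A1 libraries, and each of these 4 libraries has a deposited list of broad enriched domains. A table by the authors gives the change between siANP32B and siControl for 4474 regions. The 4 IgG libraries of the series, and the level of ANP32B after its siRNA, were not analysed here. All groups are the same cell line, the labels do not say whether replicates were separate cultures, and the spread between libraries may therefore be technical. The domain lists hold 7404 to 8623 domains that cover 467.4 to 563.8 Mb, and siANP32B libraries had fewer, longer domains (medians of 47 and 48 kb against 38 and 39 kb). Read totals are not in these files, so depth is unknown, and a domain call can depend on it.

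macroH2A is known for broad domains over weakly transcribed chromatin, often over genes that belong to other cell types. In liver cells, ABC transporters export drugs, bile constituents and cholesterol, while other members work in the retina, pancreatic islets, skin, lung or glands. Members of subfamilies E and F lack membrane domains and act in translation. Subfamily A moves lipids, B and C hold the multidrug pumps and several organelle carriers, D serves peroxisomes and lysosomes, and G holds short transporters that work as dimers.

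A few ABC genes lay almost wholly within macroH2A1 domains, while others had little or none. Coverage is the share of the 1 kb bins of a gene body that lie in a domain, and a gene is called covered at 50% or more. ABCA4, ABCC8, ABCC11, ABCC12 and ABCG4 were covered in all 4 libraries, 5 of 36 members (13.9%, against 11.6% of all protein-coding genes). A further 7 members reached 50% in some libraries but not in all, 17 carried some domain sequence but stayed under 50% in every library, and 7 had no domain bin in any library. Genes without any domain bin made up 46.9% of all protein-coding genes and 19.4% of the members. The members are longer, with a median of 74.5 kb against 24.1 kb over all protein-coding genes, and the part of length in that share was not tested. In both siControl libraries 7 members were covered (19.4%, against 13.8% of all protein-coding genes). In both siANP32B libraries 5 were (13.9%, against 17.3%).

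**Figure D1:**
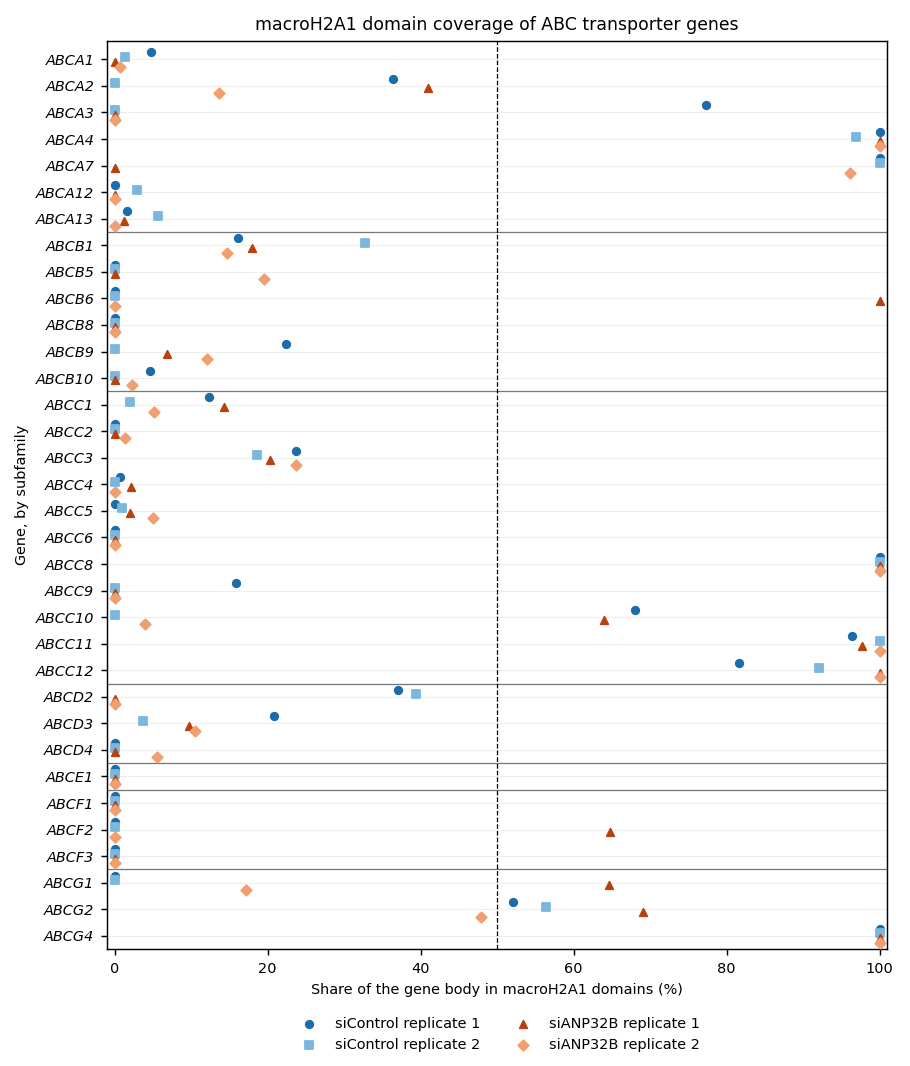
Share of each gene body in macroH2A1 domains (x axis, percent) for 34 of the 36 ABC transporter genes (y axis, grouped by subfamily), 1 point per library, with the 50% line dashed. ABCA4, ABCC8, ABCC11, ABCC12 and ABCG4 sit to the right of the line in all 4 libraries, whereas ABCA3, ABCB6, ABCC10, ABCF2 and ABCG1 cross it in 1 or 2 libraries.

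Averaged over the 36 members, coverage was 27.0% and 20.9% in siControl replicates 1 and 2 and 27.1% and 21.7% in siANP32B replicates 1 and 2. The group means were 24.0% ± 4.31 and 24.4% ± 3.85 (SD, n = 2 each), so the difference of 0.423 percentage points was far smaller than the spread between libraries of 1 group. Replicate 1 was the higher library in both groups. Over all protein-coding genes the same averages were 21.0% and 17.5% in siControl, and 25.3% and 21.6% after siANP32B, a difference of 4.24 points beside SDs of 2.53 and 2.61. With 2 libraries against 2, the smallest p of a two-sided exact permutation test is 0.33, so no coverage value below can pass a threshold of 0.05.

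Among the covered members, ABCA4 and ABCC8 lay in long domains in each library. ABCA4, the retinoid flippase of photoreceptors (chromosome 1, 93992834 to 94121148), was covered by 100% and 96.9% in siControl and by 100% in both siANP32B libraries, by domains of 259 and 170 kb and of 253 and 260 kb. ABCC8, the sulfonylurea receptor that regulates the ATP-sensitive potassium channel of islet beta cells (chromosome 11, 17392498 to 17476845), was covered by 100% in each library. The domain over ABCC8 measured 107, 106 and 125 kb in the siControl libraries and siANP32B replicate 1, but 281 kb in siANP32B replicate 2, where it reached OTOG. It also took in part of the neighbouring pore gene KCNJ11, covered by 80% and 20% in siControl, and by 60% and 80% after siANP32B.

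ABCC9, the other regulatory subunit of ATP-sensitive potassium channels, which is known from heart and smooth muscle, was covered by 15.9% in siControl replicate 1 and by 0% in the other 3 libraries. Its pore gene KCNJ8 had no domain in any library. Coverage was thus higher for the pair on chromosome 11 than for the pair on chromosome 12 in every library.

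ABCC11 and ABCC12, neighbours on chromosome 16 that encode multidrug-resistance proteins, the first known for its role in apocrine glands and earwax type, shared 1 stretch. ABCC11 (48164819 to 48247539) was covered by 96.4% and 100% in siControl, and by 97.6% and 100% after siANP32B. ABCC12 (48080882 to 48155993) was covered by 81.6% and 92.1% in siControl and by 100% in both siANP32B libraries, 13.2 points more on average (means 86.8% ± 7.44 and 100% ± 0, SD, n = 2 each, exact permutation p = 0.33). Over ABCC12 the siControl lists were broken into 3 domains in replicate 1 and 2 in replicate 2, whereas 1 domain of 303 kb and 1 of 238 kb spanned both genes after siANP32B. Both siANP32B values for ABCC12 lay above both siControl values, but the direction turned, to -46.1 points, with domains scored above the median score of the 4 pooled lists. That score was 81.1, and the siANP32B domains over ABCC12 scored 59.3 and 64.2, so none of them was kept. Chromosome 16 is one of those gained in HepG2 cells, with 2, 14, 17 and 20, and 9 members lie on these chromosomes. The part of copy number in these values was not tested.

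ABCG4, a transporter that passes cholesterol to lipoproteins and is known mainly from the brain, was the shortest gene covered in all 4 libraries (13.6 kb, chromosome 11, 119149052 to 119162666). Its domain measured 33 and 41 kb in siControl and 39 and 34 kb in siANP32B, beside list medians of 38 and 39 kb and of 47 and 48 kb. In the 100 kb on each side of the gene only 13.5% to 24.5% of sequence lay in domains. Its paralog ABCG1, which loads cholesterol onto high-density lipoprotein, had no domain in either siControl library (0% in both) and was covered by 64.6% and 17.2% in siANP32B libraries, a difference of 40.9 points (exact permutation p = 0.33). Above that same score no ABCG1 domain was left in any library, so the difference of 0 there compares nothing. The ABCG1 domains of the 2 siANP32B libraries lay in different parts of the gene: 2 domains of 38 and 26 kb lay inside it in replicate 1, and 2 domains of 65 and 81 kb overlapped only its ends in replicate 2. ABCG1 was the only member whose 2 siANP32B values both lay at least 10 points above both siControl values, 2.78% of members against 5.17% of all protein-coding genes.

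The domain over ABCD2 was called only in the siControl libraries. ABCD2, a peroxisomal carrier of very long chain fatty acids on chromosome 12 (39531025 to 39619803), was covered by 37.1% and 39.3% in siControl and by 0% in both siANP32B libraries. The difference was -38.2 points (means 38.2% ± 1.59 and 0% ± 0, SD, n = 2 each, exact permutation p = 0.33), many times the spread between libraries. The siControl domains of 33 and 35 kb lay wholly inside the gene, with scores close to the middle of their lists (56.3% and 53.1% of domains had a lower score). The nearest domain after siANP32B lay 85.2 and 51.0 kb from the gene. ABCD2 was the only member with both siANP32B values at least 10 points below both siControl values, 2.78% of members against 1.41% of all protein-coding genes. No tested region of the authors' deposited table overlaps ABCD2, so it has no tested signal here.

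In subfamily D, ABCD4, which acts in lysosomal cobalamin export, had 5.56% in siANP32B replicate 2 only. ABCD3, a peroxisomal importer of branched fatty acids and bile acid intermediates, was covered by 20.9% and 3.73% in siControl, and by 9.70% and 10.4% after siANP32B. Domains of 142 to 172 kb next to ABCD3 ended inside the first part of its gene body in every library.

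Coverage in the lipid transporters of subfamily A ranged from 0% to 100%. ABCA7, a lipid transporter linked to Alzheimer disease risk (chromosome 19, 1040107 to 1065572), was covered by 100% in both siControl libraries and by 0% and 96.2% in siANP32B libraries. The mean difference of -51.9 points (exact permutation p = 0.33) rests on siANP32B replicate 1. Without that library it was -3.85 points, and with equal numbers of best-scored domains -1.92 points. Above the median score of all lists no ABCA7 domain was left in any library, so the difference of 0 there compares nothing. The ABCA7 domain had low scores in siControl replicate 2 (4.37% of that list lower) and siANP32B replicate 2 (29.7% lower). ABCA3, which packs surfactant lipids in the lung, was covered by 77.3% in siControl replicate 1 and by 0% in the other 3 libraries. ABCA2, a lysosomal lipid transporter of the nervous system, was covered by 36.4% and 0% in siControl, and by 40.9% and 13.6% after siANP32B. Its values thus differed more between libraries of 1 group than between the group means.

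In ABCA1, ABCA12 and ABCA13, long genes of subfamily A with little coverage, domains overlapped only the start of the gene. ABCA1, which exports cholesterol and phospholipid to apolipoprotein A-I, is 147 kb long. It was covered by 4.73% and 1.35% in siControl, and by 0% and 0.676% after siANP32B, although a domain of 317 to 323 kb lay upstream in 3 libraries and reached 6.16, 1.16 and 0.155 kb into the gene. In siANP32B replicate 1 the nearest domain stopped 1.85 kb short of it. ABCA13, the longest member at 476 kb, was covered by 1.68% and 5.66% in siControl, and by 1.26% and 0% after siANP32B. ABCA12, the keratinocyte lipid transporter, had 2.88% in siControl replicate 2 and 0% elsewhere.

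In subfamily B the multidrug pump ABCB1 had a short domain inside the gene. ABCB1, which encodes P-glycoprotein (chromosome 7, 87503017 to 87713295), was covered by 16.1% and 32.7% in siControl, and by 18.0% and 14.7% after siANP32B. A domain of 31 to 38 kb, 79.3 to 117.3 kb from the outermost start at its widest, was present in all 4 libraries. The higher value of siControl replicate 2 came from a second domain of 43 kb over the outermost start. ABCG2, the breast cancer resistance protein on chromosome 4 (88090264 to 88231626), was covered by 52.1% and 56.3% in siControl, and by 69.0% and 47.9% after siANP32B, on both sides of the 50% line. The ABCG2 domains of the siControl libraries ran from the outermost start to just past the internal starts, those of siANP32B replicate 1 had a gap and ran further into the gene, and that of siANP32B replicate 2 began 6.63 kb inside it.

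RefSeq lists 2 starts for ABCB1 and 5 for ABCG2, and in both genes the internal starts lay in a domain in each of the 4 libraries. The outermost start of ABCB1 lay in a domain in 1 library and that of ABCG2 in 3. The 250 bases upstream of the outermost and of the innermost start are printed for both genes, 5′ to 3′ on the gene's strand, from RefSeq GRCh38.p14, with CpG dinucleotides in capitals.
ABCB1 outermost start, chr7:87713296-87713545, minus strand: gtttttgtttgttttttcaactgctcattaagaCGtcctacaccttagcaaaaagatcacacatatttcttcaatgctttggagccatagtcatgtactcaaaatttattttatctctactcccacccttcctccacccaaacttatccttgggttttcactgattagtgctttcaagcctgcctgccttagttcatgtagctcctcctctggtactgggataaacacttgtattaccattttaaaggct
ABCB1 internal start, chr7:87600885-87601134, minus strand: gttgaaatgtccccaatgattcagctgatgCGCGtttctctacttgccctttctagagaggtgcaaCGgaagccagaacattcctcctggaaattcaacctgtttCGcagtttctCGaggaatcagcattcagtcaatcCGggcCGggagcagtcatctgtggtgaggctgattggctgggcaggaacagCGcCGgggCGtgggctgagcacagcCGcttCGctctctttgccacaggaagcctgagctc
ABCG2 outermost start, chr4:88231627-88231876, minus strand: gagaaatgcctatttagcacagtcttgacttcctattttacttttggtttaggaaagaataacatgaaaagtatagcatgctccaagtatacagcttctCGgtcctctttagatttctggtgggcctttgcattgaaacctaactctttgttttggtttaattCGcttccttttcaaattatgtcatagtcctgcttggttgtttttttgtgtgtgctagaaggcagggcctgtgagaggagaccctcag
ABCG2 internal start, chr4:88158640-88158889, minus strand: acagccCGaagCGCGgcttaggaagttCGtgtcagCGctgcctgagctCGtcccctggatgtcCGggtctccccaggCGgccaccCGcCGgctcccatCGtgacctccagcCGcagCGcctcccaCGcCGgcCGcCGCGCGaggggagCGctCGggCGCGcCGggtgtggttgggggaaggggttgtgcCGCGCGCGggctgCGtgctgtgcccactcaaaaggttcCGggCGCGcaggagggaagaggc
The outermost windows are poor in CpG, with 1 for ABCB1 and 2 for ABCG2, and the internal windows hold 12 and 32. The median over the outermost starts of 15843 protein-coding genes was 17.

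**Figure D2:**
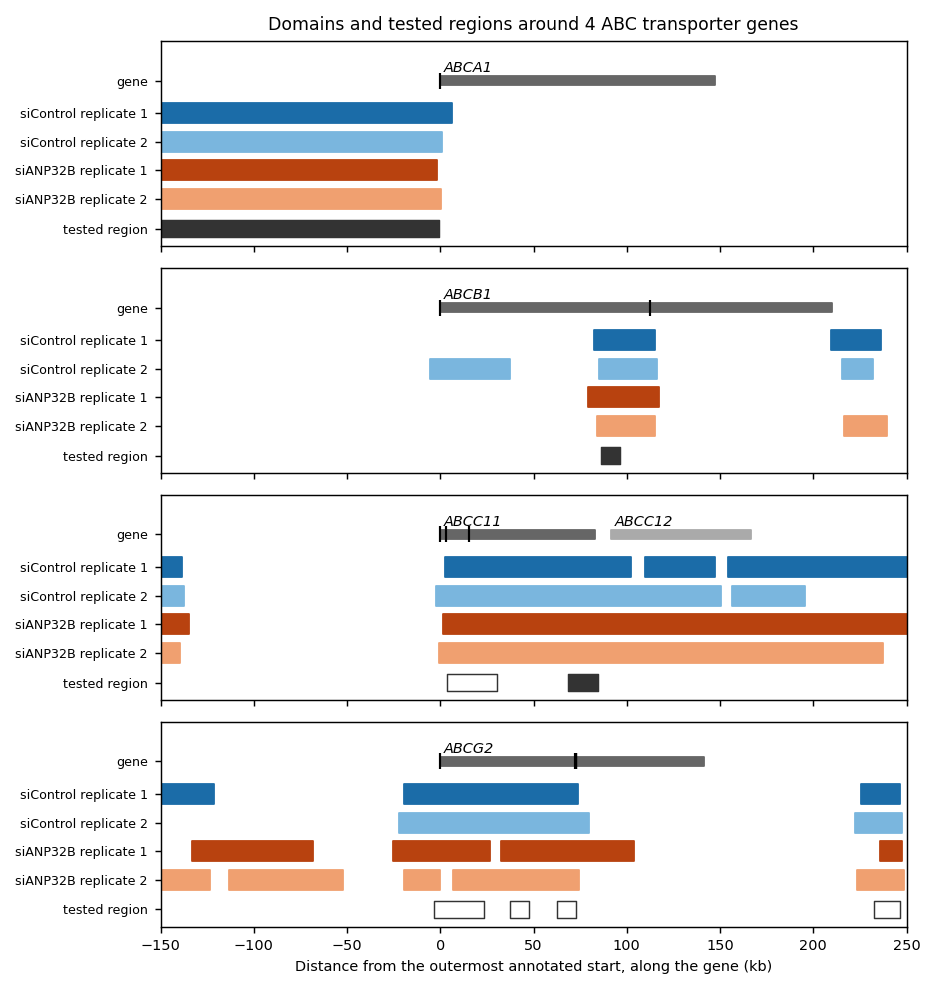
Domains of the 4 libraries (coloured bars), tested regions of the authors' table (black, lower at a false discovery rate of 0.05; open, not called) and gene bodies with annotated starts (ticks) around ABCA1, ABCB1, ABCC11 with ABCC12, and ABCG2, against the distance from the outermost start in kb along the gene. The ABCA1 domain stops at the gene's start, the ABCB1 domain lies inside the gene at the internal start, 1 unbroken domain spans ABCC11 and ABCC12 after siANP32B, and the ABCG2 domains cover most of the part between its starts.

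The other members of subfamily B were mostly outside domains. ABCB8, part of a mitochondrial potassium channel, had none, with the nearest domain 14.4 to 20.4 kb away. ABCB10, a mitochondrial carrier with a role in red cell precursors, had 4.65% in siControl replicate 1 and 2.33% in siANP32B replicate 2. ABCB6, a porphyrin carrier, was covered by 100% in siANP32B replicate 1 and 0% in the other 3 libraries. That domain was 179 kb long, touched 11 coding genes and scored low (11.0% of its list lower). ABCB9, a lysosomal peptide carrier, ranged from 0% to 22.4%, and ABCB5, known from melanocyte and limbal progenitor cells, had 19.6% in siANP32B replicate 2 only.

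Over the 9 multidrug-resistance proteins of subfamily C, mean coverage was 31.4% and 23.8% in siControl, and 33.4% and 26.6% after siANP32B. ABCC10, ABCC11 and ABCC12 were the 3 that reached 50% in any library. ABCC2, the canalicular pump for conjugated bilirubin, had 0% in 3 libraries and 1.41% in siANP32B replicate 2. ABCC6, the liver protein mutated in pseudoxanthoma elasticum, had 0% in all 4 libraries, with the nearest domain 172.6 to 190.6 kb away. ABCC6 has near-identical partial copies nearby on chromosome 16, where reads cannot be placed with certainty, and their part in this value was not tested. ABCC3, a basolateral exporter, was covered by 23.7% and 18.6% in siControl, and by 20.3% and 23.7% after siANP32B, always by a domain that crossed 1 end of the gene. ABCC1 ranged from 2.05% to 14.4%, ABCC4, a carrier of cyclic nucleotides, from 0% to 2.12%, and ABCC5, another such carrier, from 0% to 5.05%.

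ABCC10, a further drug exporter of this subfamily, differed more between libraries of 1 group than between the groups. It was covered by 68% in siControl replicate 1 and 64% in siANP32B replicate 1, against 0% in siControl replicate 2 and 4% in siANP32B replicate 2. Both group means were 34.0%, and the spread within a group was 48.1 and 42.4 points (SD, n = 2 each). Replicate numbers are not shown to pair the libraries, and the share of all protein-coding genes with such values is not given here.

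The translation factors of subfamilies E and F had almost no macroH2A1 domains. ABCE1, which recycles ribosomes, ABCF1, which acts in translation initiation, and ABCF3 had 0% in each library. ABCF2 had 64.7% in siANP32B replicate 1 only, from a domain of 125 kb that touched 5 coding genes. Around ABCF1 and ABCF3, domains were close by: they filled 31.5% to 56.0% and 35.5% to 56.5% of the 100 kb on each side. ABCE1 was more remote, with the nearest domain 57.5 to 194.5 kb away.

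Few starts of ABC genes lay in a domain in every library. Starts were found for 28 of the 36 members in the RefSeq promoter table, which had none for 8, among them ABCA4, ABCB5, ABCC1, ABCC3, ABCC8 and ABCG1. The number of starts in a domain was 12 and 10 in siControl, and 10 and 9 after siANP32B, a mean difference of -1.5 starts. As shares these were 42.9%, 35.7%, 35.7% and 32.1%, beside 28.9%, 22.4%, 32.0% and 28.2% of the starts of 15843 protein-coding genes. By this table ABCC12 and ABCG4 had their outermost start in a domain in all 4 libraries, 2 of 28 or 7.14% against 13.8% of all protein-coding genes. For ABCD3 the first start in the table lies 33.3 kb inside the gene body, and the 5′ end of that body (94385131) was in a domain in all 4 libraries. With the 5′ ends of gene bodies in place of the table's starts, an alternative chosen after seeing the data, the numbers were 12 and 11 in siControl, and 11 and 10 after siANP32B, a mean difference of -1.0 starts. ABCC12, ABCD3 and ABCG4 were then in a domain in all 4 libraries, 3 of 28 or 10.7% against 14.2%. By the table's starts, 9 of 28 lay in no domain in any library, 32.1% against 56.1% of all protein-coding genes. With the 5′ ends the number was also 9, 32.1% against 55.8%. These were ABCB8, ABCB9, ABCC2, ABCC6, ABCC9, ABCD2, ABCE1, ABCF1 and ABCF3.

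The windows of 250 bases upstream of the outermost start are shown for the 2 members in domains in all libraries and for 2 members in none, with CpG dinucleotides in capitals.
ABCG4 outermost start, chr11:119148802-119149051, plus strand: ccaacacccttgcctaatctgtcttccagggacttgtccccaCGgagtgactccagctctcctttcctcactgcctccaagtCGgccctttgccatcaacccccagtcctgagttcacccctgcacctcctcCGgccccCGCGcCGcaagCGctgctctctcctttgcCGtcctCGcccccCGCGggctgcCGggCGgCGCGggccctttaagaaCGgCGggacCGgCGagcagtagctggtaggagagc
ABCC12 outermost start, chr16:48155994-48156243, minus strand: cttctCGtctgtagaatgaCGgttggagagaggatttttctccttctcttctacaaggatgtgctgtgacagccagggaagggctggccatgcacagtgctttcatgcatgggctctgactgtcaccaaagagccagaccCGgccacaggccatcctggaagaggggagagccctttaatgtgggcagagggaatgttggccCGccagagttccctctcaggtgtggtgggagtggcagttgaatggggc
ABCC2 outermost start, chr10:99782390-99782639, plus strand: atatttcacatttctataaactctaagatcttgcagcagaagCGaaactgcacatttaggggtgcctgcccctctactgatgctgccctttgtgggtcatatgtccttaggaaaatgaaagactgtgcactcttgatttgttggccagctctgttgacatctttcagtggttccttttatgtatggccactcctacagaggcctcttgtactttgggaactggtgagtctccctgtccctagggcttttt
ABCE1 outermost start, chr4:145098061-145098310, plus strand: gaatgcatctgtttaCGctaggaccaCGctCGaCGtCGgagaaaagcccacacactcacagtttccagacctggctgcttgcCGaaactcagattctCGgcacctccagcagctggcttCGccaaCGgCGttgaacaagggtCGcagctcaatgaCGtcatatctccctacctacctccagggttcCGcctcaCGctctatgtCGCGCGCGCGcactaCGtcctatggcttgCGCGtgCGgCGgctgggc
Each pair holds 1 CpG-rich and 1 CpG-poor window: ABCG4 has 19 CpG and ABCC12 4, while ABCE1 has 24 and ABCC2 1. These 4 were chosen after their values were seen. Over all 9 members whose start lay in no domain, the median was 21 CpG (range 1 to 31). The motif GGGCGG, searched on both strands, was present in 16 of the 28 member windows (57.1%, against 55.8% over all protein-coding genes), and TATAAA in 4 (14.3% against 9.35%). Among the 4 windows printed, GGGCGG was found in that of ABCG4 and TATAAA in that of ABCC2.

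Domains were more frequent upstream of the starts of ABC genes than downstream of them. Over the 100 kb upstream of the outermost start in the table, 43.1% and 34.5% of sequence lay in domains in siControl, and 46.6% and 37.6% after siANP32B. Over the 100 kb downstream the shares were 28.1% and 22.6% in siControl, and 26.5% and 21.8% after siANP32B. Downstream minus upstream came to -20.1 to -11.8 points, against -7.25 to -6.12 points over all protein-coding genes, and no test was made of that gap. The upstream share was the higher one in 14 to 16 of the 28 members, depending on the library, and the downstream share in 8 to 10. The 2 sides were equal in 2 to 4 members. Over the 15843 protein-coding genes, upstream was higher in 6089 to 6571 and downstream in 4416 to 4653. The sides were equal in 4619 to 5338. Shares with upstream higher, 50.0% to 57.1% of members against 38.4% to 41.5%, count equal sides in the denominator and are therefore not directly comparable. Counted over whole gene bodies, 12 of 36 members (33.3%) had more coverage in their 100 kb flanks than in the body in all 4 libraries, close to the 34.2% of all protein-coding genes. The opposite held in all 4 for 6 members (16.7%), against 11.0% of all protein-coding genes.

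**Figure D3:**
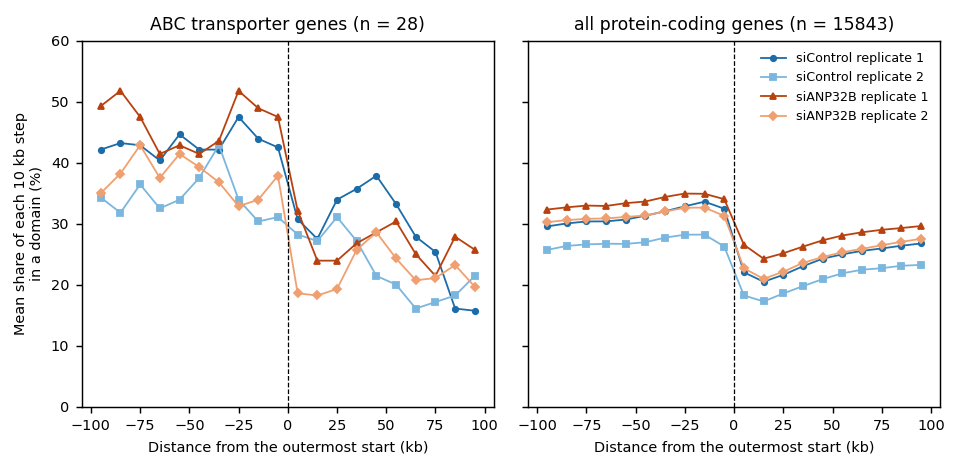
Mean share of each 10 kb step in a macroH2A1 domain (y axis, percent) against the distance from the outermost start (x axis, kb, negative upstream), for 28 ABC transporter genes and for 15843 protein-coding genes, 1 line per library. In both panels coverage drops at the start, and the ABC lines average far fewer genes.

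Where the authors tested a region, macroH2A1 over ABC genes was lower or did not pass after siANP32B, and none was higher. Positive folds in the authors' deposited table were read as higher after siANP32B, because its higher regions lay in domains more often in siANP32B libraries (99.4% in both, against 88.3% and 80.7% in siControl). At least 1 region overlapped the body of 6 of 36 members (16.7%, against 9.25% of all protein-coding genes): ABCA2, ABCA4, ABCB1, ABCC8, ABCC11 and ABCG2. Lower regions at a false discovery rate of 0.05 lay over 5 of these 6, beside 60.7% of the coding genes over any tested region. Higher regions lay over 0 of the 6, beside 5.83% of those coding genes. Of the 10 regions that the authors' deposited table has over members, 5 were lower and 0 higher (58.4% and 3.82% of all 4474 regions), and the counts at an unadjusted p below 0.05 were also 5 and 0.

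The folds over members spread widely over the table, with a median near that of all regions. From 17.9% (ABCB1) to 86.3% (1 of the ABCA4 regions) of all regions had a lower fold. In the authors' deposited table the log2 fold of the representative window was below 0 in 10 of 10 member regions, with a median of -0.47 and a range from -0.81 to -0.07, beside a median of -0.54 over all 4474 regions, of which 89.2% were below 0. Since nearly the whole table leans one way and its scaling is unknown, a fold below 0 at a member is not set apart from the table as a whole.

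**Figure D4:**
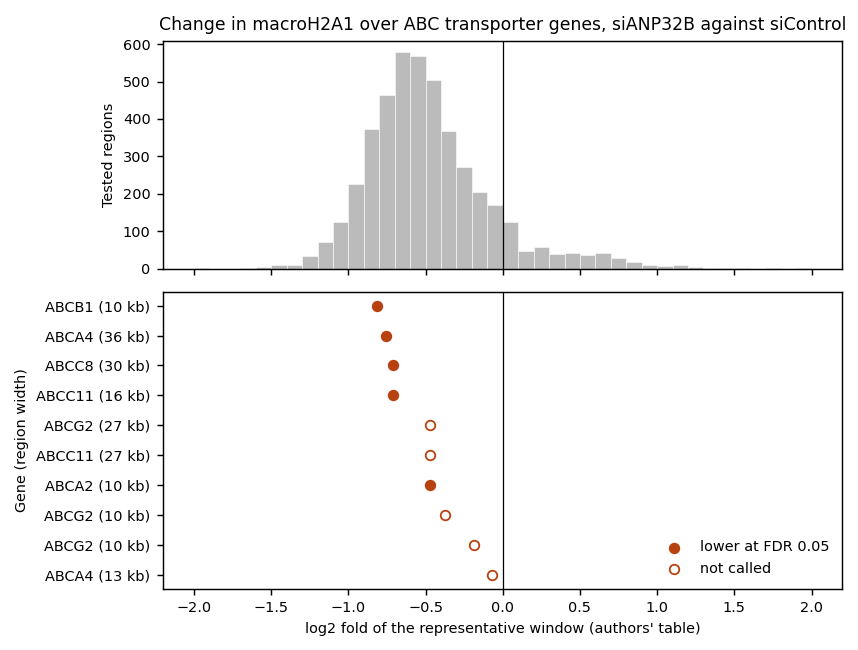
Log2 folds of siANP32B against siControl in the authors' deposited table: counts of all 4474 tested regions in steps of 0.1 (top) and the 10 regions over ABC transporter genes (bottom, filled where lower at a false discovery rate of 0.05). The member regions run from -0.81 at ABCB1 to -0.07 at ABCA4, all left of 0, as 89.2% of all regions are.

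ABCB1 had the lowest fold of any member. Its region of 10 kb (chromosome 7, 87617001 to 87627000, hg38), 86.3 kb into the gene from the outermost start, had a log2 fold of -0.81 (FDR 3.07e-04) in the authors' deposited table, which leaves 56.9% of the siControl signal. This region is a single window, and 17.9% of regions of the authors' deposited table had a lower fold. It lay within the domain around the internal start, which was called in all 4 libraries (100% of the region covered in each).

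At ABCC8 the region of 30 kb (chromosome 11, 17424001 to 17454000) had a log2 fold of -0.71 (FDR 2.10e-04), with 15 of 21 windows down and 0 up, in the authors' deposited table. At ABCA4 the region of 36 kb (chromosome 1, 94078001 to 94114000) had -0.76 (FDR 0.00143), with 19 of 20 windows down, in the authors' deposited table. A second ABCA4 region of 13 kb (94020001 to 94033000) had -0.07 (FDR 0.763) in the authors' deposited table and did not pass. The domain of ABCA4 covered both regions in every library, so the 2 parts of 1 domain had different folds, and the difference between them was not tested.

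ABCC11 also carried 2 regions. The one across its far end (chromosome 16, 48163001 to 48179000, 16 kb) had a log2 fold of -0.71 (FDR 8.37e-04) with 7 of 7 windows down, and the one near its start (48217001 to 48244000, 27 kb) had -0.47 (FDR 0.142) and did not pass, in the authors' deposited table. ABCC12, 7.01 kb from the first of them, had no region over its body. At this locus the ABCC12 coverage was 100% in both siANP32B libraries while the region next to it had a lower signal than in siControl.

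None of the 3 regions over ABCG2 passed in the authors' deposited table, with log2 folds of -0.47 over the outermost start (FDR 0.136), -0.19 in the middle (FDR 0.407) and -0.38 next to the internal starts (FDR 0.0782). Of the drug pumps ABCB1 and ABCG2, whose internal starts lay in domains, only ABCB1 thus had a region that passed, and the difference between them was not tested. At ABCA2 a region of 10 kb overlapped only 0.922 kb at the gene's start and also reached FUT7. It had a log2 fold of -0.47 (FDR 0.0259) in the authors' deposited table, from 1 window.

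With 10 kb added on each side of the gene body, ABCA1, ABCB9, ABCC3, ABCC12 and ABCD3 came next to a tested region as well. Members with a lower region were then 10 of 11 (11 of 36 members, beside 15.3% of coding genes, came within 10 kb of a tested region), beside 62.5% of coding genes within 10 kb of a tested region, and 0 of 11 had a higher one, beside 4.46%. ABCC11 and ABCC12 count here through the same lower region, so the members are not independent. The region beside ABCA1 is 167 kb wide and begins 0.846 kb upstream of the gene, with a log2 fold of -0.68 (FDR 0.00453) and 50 of 124 windows down in the authors' deposited table. Those near ABCB9, ABCD3 and ABCC3 had log2 folds of -0.68, -0.68 and -0.54 in the authors' deposited table.

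Of 12 ABC genes outside the name rule (the 9 left out by name, with TAP1, TAP2 and CFTR), 5 were covered in both siControl libraries. That was 41.7%, against 13.8% of all protein-coding genes. Of the 6 over tested regions, 5 were over a lower one, beside 60.7% of the coding genes over any tested region. In both counts the 5 were ABCB11 and the chromosome 17 neighbours ABCA6, ABCA8, ABCA9 and ABCA10, so they are not independent genes. CFTR, the chloride channel of subfamily C, was covered by 13.2% and 12.2% in siControl, and by 29.6% and 16.9% after siANP32B. TAP1 and TAP2, which load peptides for antigen presentation, ranged from 0% to 33.3%. Of 18 partners and regulators, only APOA1, the acceptor of lipid from ABCA1, was covered in both siControl libraries (5.56%, against 13.8% of all protein-coding genes). Its coverage was 100% in both siControl libraries, and 100% and 0% in siANP32B. APOA1 is a short gene (chromosome 11, 116835751 to 116837622), so these values rest on few bins. TAPBP, a partner of TAP1 and TAP2, was covered by 12.5% and 0% in siControl, and by 93.8% and 25% after siANP32B. Among the nuclear receptor genes that control several ABC genes, NR1H2 and NR1H3 had 0%, PPARA at most 2.13% and NR1I2 at most 2.70%. RXRA had at most 13.0%, NR1H4 at most 22.8% and NR1I3 between 10% and 50%. No tested region lay over any of the 18, beside 9.25% of all protein-coding genes. These 18 are short, with a median length of 13.7 kb against 24.1 kb, and the part of length was not tested.

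The 36 members had lower average coverage than 2 other families of transport and detoxification. The 12 ABC genes outside the name rule averaged 44.7% to 50.0%. That average joins 93.2% to 100% at ABCB11 and the neighbours ABCA6, ABCA8, ABCA9 and ABCA10 with 0% to 2.68% at ABCB4, ABCG5 and ABCG8. It therefore depends on which genes the rule left out. The mean over 32 SLCO and SLC22A genes, which take up organic ions, was 35.4% and 30.1% in siControl, and 43.0% and 38.7% after siANP32B. For 55 cytochrome P450 genes it was 37.8% and 38.5% in siControl, and 42.1% and 35.4% after siANP32B. Each mean over the 36 members (20.9% to 27.1%) lay below each of these. Neighbouring genes can share a domain, as ABCC11 and ABCC12 do, so genes are not independent points, and the difference was not tested.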

How the data were processed

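macroH2A1 CUT&RUN was analysed in 4 HepG2 libraries, 2 siControl and 2 siANP32B. The build hg38 and the tools edgeR, SICER, deepTools, SAMtools, Bowtie2 and Trim Galore stand in the submitters' processing notes, without versions. Each domain list deposited by the authors is of 1 library, with a score for every domain, which served only to rank or filter domains. Per the file headers, the authors' deposited table gives a p-value and false discovery rate per region, the fold of a representative window, read here as log2 by the convention of edgeR, and numbers of windows. It holds 4474 regions and no values per library (0 such columns), so no model was refitted. Depth is unknown, and so is the scaling of libraries.

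Gene bodies and starts came from RefSeq GRCh38.p14, the same assembly as hg38; exons were not used here. Coverage was counted in 1 kb bins, in Python 3.11.15 with numpy 2.4.6 and pandas 2.3.3, and the code was checked on simulated data. A gene was called covered at 50%, and regions at a false discovery rate of 0.05. Single genes were compared by an exact permutation test over libraries (two-sided). Named with values in every library were members over a tested region, members with 25% or more coverage in any library, and members whose groups lay 10 points apart; others were given by range or chosen after their values were seen. Of the 36 members, 2 enter the counts and averages but are not reported here by name. The members and lists were chosen with earlier results of these data known.

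Alternatives were other coverage thresholds, domain sets, overlaps and false discovery rates, base pairs in place of bins, each library left out, a replicate block, and the chromosomes gained in HepG2 left out.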

Additional observations from a re-analysis of the deposited data

How the results depend on the processing

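Of 52 alternative values for the counts and averages over members, 43 stayed within 1.5 times the count or within the spread between libraries, and no direction of a single gene turned except that of ABCC12. Some of the 43 could not move: a group's count when a library of the other group was left out, and the replicate block. The mean difference counted as stable within 4.08 points, the pooled SD. It changed sign without siControl replicate 2 (-2.62), without siANP32B replicate 1 (-2.30) and without the chromosomes gained in HepG2 (-0.542). Keeping only domains above a common score, the median of all 4 lists, changed most. Then 4 members were covered in both siControl and 1 in both siANP32B libraries. The mean difference was -6.95 points, the difference in starts was -4.0, and ABCC12 went to -46.1 points. ABCA7 and ABCG1 went to 0 because no domain over them was left in any library. Median scores were lower in the siANP32B lists (70.1 and 67.5, against 88.9 and 97.7 in siControl). A common score thus drops a larger part of the siANP32B lists. With equal numbers of best-scored domains (7404 per library) the difference in starts was 0 ABCA7 was at -1.92 points and ABCC12 at 21.7 points. Adding 10 kb to each gene body gave 10 members over lower and 11 over tested regions. Without chromosomes 2, 14, 16, 17 and 20, which hold 9 of the 36 members, 3 members were covered in both siANP32B libraries. ABCC11 and ABCC12, on chromosome 16, were among those removed, so the count is over a smaller set. Leaving out 1 library at a time gave 7 to 9 members covered in siControl and 5 to 10 in siANP32B (10 without siANP32B replicate 2). When a group loses 1 of its own libraries, its count is of members covered in the 1 library left. The 9 and the 10 are such counts of replicate 1 alone, so they are not comparable with counts in both libraries. Mean differences ran from -2.62 to 3.47 points and differences in starts from -2.5 to -0.5. With the same libraries left out, ABCD2 ranged from -39.3 to -37.1, ABCA7 from -100 to -3.85, ABCC12 from 7.89 to 18.4 and ABCG1 from 17.2 to 64.6 points. At a false discovery rate of 0.01, or with at least 1 kb of overlap, ABCA2 dropped out and 4 members were over lower regions. As a replicate block, pairing libraries by number cannot change the mean difference of 0.423 points or the starts at -1.5, by arithmetic. Only the p-value could move. An exact sign-flip test of the pairs gave p = 0.5 for ABCA7, ABCC12, ABCD2 and ABCG1, the smallest it can give. Replicate differences in the 2 groups correlated at 0.0852 over 20037 coding genes and at 0.192 over the 36 members. The numbers are therefore not shown to pair the libraries. The cause of these shifts was not tested. Domain calls depend on depth, which is unknown here.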
